A study of Mus musculus with 2 samples.

Results

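The loci described here are 6 microRNA genes at the Meg3 end of the imprinted Dlk1-Dio3 region on mouse chromosome 12, namely Mir770, Mir673, Mir493, Mir337, Mir540 and Mir665. They were chosen by name, as microRNA genes hosted by Meg3 or lying between its end and the microRNAs antisense to Rtl1, and all 6 were found among the 2202 microRNA loci of the deposited files. Mir1906-1 within Meg3 and Mir3544 on the strand opposite to Mir337 lie in the same stretch and are not among the 6. Mir3070a and Mir3070b, between Mir665 and the annotated Rtl1, are not among them either and are counted here with the Rtl1-antisense loci. The samples form 1 group: left cerebral cortex of female B6CASTF1/J mice aged 14 days, without treatment or engineered allele. B6CASTF1/J is a first-generation hybrid of C57BL/6J and a CAST strain, and the counts are not split by parental allele. There are 2 libraries of RNA shorter than 30 nt, 1 per biological replicate. The labels speak of several females for replicate 1 and of 1 female for replicate 2, both under the same donor record, so spread between the libraries may be partly technical, and it is not known if the first is a pool of animals. With no second group, the comparisons are among loci and between the libraries.

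In the Dlk1-Dio3 region, the protein-coding genes Dlk1, Rtl1 and Dio3 are expressed from the paternal chromosome, and the long non-coding RNAs Meg3, Rian and Mirg from the maternal one. Most microRNAs of the region are read in the direction of Meg3 and come from the maternal chromosome. A few annotated loci, such as Mir3544, lie on the other strand. A microRNA is cut from a hairpin precursor, whose 5p or 3p arm is loaded onto an Argonaute protein and pairs with target RNAs mainly through its seed, bases 2 to 8. Mir770, Mir493, Mir337 and Mir665 have human counterparts, whereas Mir673 and Mir540 are known from rodents. Human miR-493 is known for restraining metastasis of tumour cells. The region as a whole is known for its high activity in brain.

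The mature sequences are shown first, because they set what each locus can bind and whether reads can be assigned to it alone. They are RefSeq sequences on GRCm38.p6 (mm10), written 5′ to 3′ with the seed in capitals, and all 6 loci were matched.
miR-770-5p: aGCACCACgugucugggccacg
miR-770-3p: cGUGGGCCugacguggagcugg
miR-673-5p: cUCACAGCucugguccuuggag
miR-673-3p: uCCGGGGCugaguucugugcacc
miR-493-5p: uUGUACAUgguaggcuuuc
miR-493-3p: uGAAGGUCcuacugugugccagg
miR-337-5p: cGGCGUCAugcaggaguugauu
miR-337-3p: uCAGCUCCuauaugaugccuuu
miR-540-5p: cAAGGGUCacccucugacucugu
miR-540-3p: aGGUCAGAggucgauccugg
miR-665-5p: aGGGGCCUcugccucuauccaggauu
miR-665-3p: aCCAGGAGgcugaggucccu

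The 12 arms carried 12 different seeds, so no 2 arms of these neighbouring loci shared a seed. Among the 1679 mature mouse microRNAs of the table, 10 of the 12 seeds occurred at no other locus. The seed of miR-673-5p recurred in miR-6985-3p, whose locus Mir6985 had 20 reads in each library. The seed of miR-540-3p recurred in miR-6915-5p, whose locus Mir6915 had 23 reads in replicate 2 and 13 in replicate 1. Both of these loci lay far below the members that share their seed. The deposited counts are per locus and do not say which arm the reads came from, so the level of each arm is not given.

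None of the 6 hairpins held a stretch of 20 nt identical, in the same orientation, to another microRNA locus. The longest such stretch was 14 nt, in Mir493, and the shortest 11 nt, in Mir337. This bears on the counts, because reads that map to several places enter no locus in these files, and such reads were 37.9% of the total in replicate 2 and 40.6% in replicate 1. Mir1906-1, the other microRNA locus annotated within Meg3 (chromosome 12, 109544541 to 109544620), shows the opposite case. It is identical over its whole 80 nt to Mir1906-2 on the X chromosome, and both had 0 reads in either library. The limit that a count of 0 allows is 3 reads, or 0.935 CPM for replicate 2 and 1.09 CPM for replicate 1, and in a duplicated locus it does not show that the microRNA is absent.

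The hairpin of Mir770 stood out by its base composition and by a repeated motif, and is printed with both mature arms in capitals.
Mir770: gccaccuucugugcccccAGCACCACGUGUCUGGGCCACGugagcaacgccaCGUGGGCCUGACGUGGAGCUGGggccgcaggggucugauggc
It was 70.2% G and C, and 2.95% of all microRNA loci had a higher share. The other 5 hairpins had between 52.6% (Mir337) and 61.5% (Mir673), against a median of 50.8% over all loci. The palindrome CACGUG, which reads the same on both strands, occurred 3 times in the Mir770 hairpin and in none of the other 5. It was found in 22 of the 2202 hairpins (0.999%), and Mir770 was the 1 locus with 3 copies. The motif was picked after the sequence was seen, and its presence is a description. The minimum free energy predicted by RNAfold was −58.2 kcal/mol for Mir770 and lay between −49.4 (Mir337) and −40.9 kcal/mol (Mir540) for the other 5. These energies are not corrected for length: the hairpin of Mir770 has 94 nt and that of Mir540 has 67 nt. Mir665, also of 94 nt, was at −44.2 kcal/mol, and Mir337, at −49.4 kcal/mol, has 97 nt. In the predicted folds 78.7% of the bases of Mir770 were paired, against 80.6% of those of Mir540, so the paired share does not set Mir770 apart.

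By position, the 6 loci span 22.7 kb on the plus strand (GENCODE M21 on mm10). Mir770 (chromosome 12, 109563692 to 109563785) begins 22.7 kb from the start of Meg3 and is the 1 member inside an annotated host. Of 11 annotated Meg3 transcripts, 1 carries Mir770 in its last exon (109558640 to 109571726), 3 carry it in their last intron (109558321 to 109571390), and 7 do not reach it. Mir673 (109571990 to 109572080) begins 263 nt beyond the annotated end of Meg3. Mir493 (109580233 to 109580315) and Mir337 (109585789 to 109585885) begin 8.51 kb and 14.1 kb beyond it. Mir540 (109586080 to 109586146) and Mir665 (109586314 to 109586407) follow Mir337 within a stretch of 619 nt. These 5 loci lie in no annotated gene on their own strand, exonic or intronic, so "downstream of Meg3" describes them as far as this annotation goes.

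**Figure D1:**
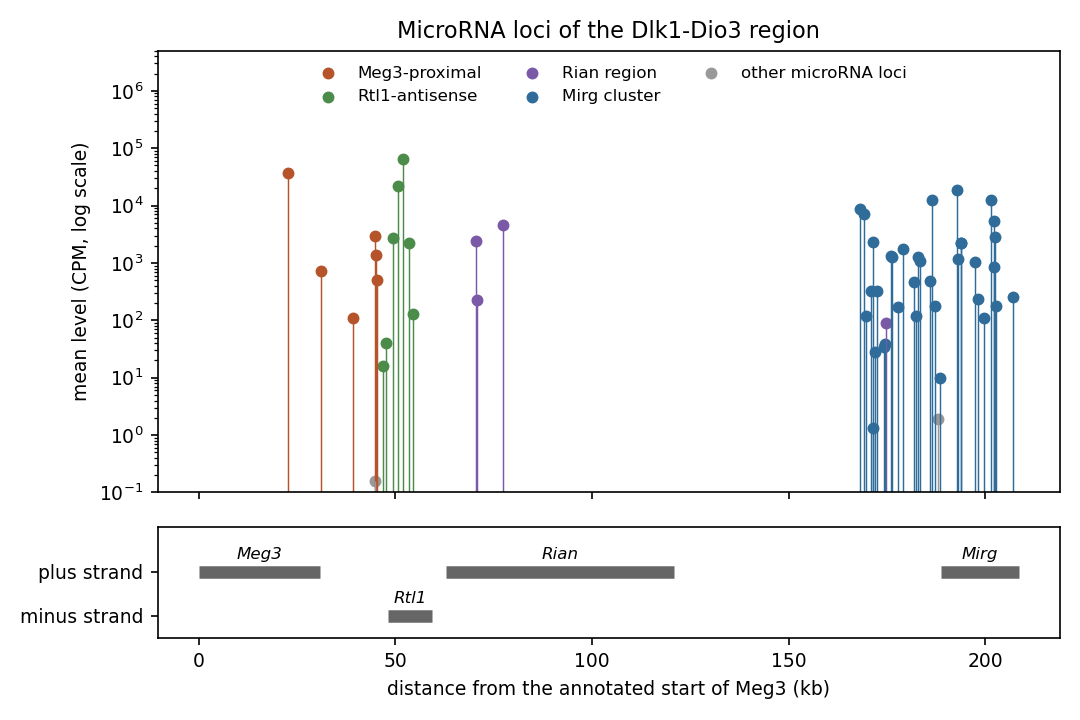
Mean level in CPM over the 2 libraries (log axis, dots) of each microRNA locus with at least 1 read, against distance from the annotated start of Meg3 in kb, coloured by list, with the extent of Meg3, Rtl1, Rian and Mirg below. Mir770 stands alone inside Meg3 at 36617 CPM, and the 5 loci after it lie between 108 and 2972 CPM; the grey dot under Mir337 is its antisense partner Mir3544.

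Levels are reads on the RNA strand, scaled to 1000000 gene-assigned reads per library (CPM). Replicate 2 held 3207941 gene-assigned reads, 33.3% of all its reads, and replicate 1 held 2740332, 35.4%. Reads were present at 694 loci in replicate 2 and at 674 in replicate 1. The tissue label was checked against marker loci: 15 neuron-enriched loci, 11 of them detected, took 4.31% of the assigned reads of replicate 2 and 3.38% of those of replicate 1. The undetected loci of that list were Mir124a-1, Mir124a-2, Mir124a-3 and Mir9-2, so the check rests on no miR-124 locus. Why they had few reads was not tested. A muscle list of 9 loci took 0.00577% in replicate 2 and 0.00420% in replicate 1, and 2 of its loci were detected. The 5 muscle loci at 0 in both libraries, Mir1a-1, Mir1a-2, Mir133a-1, Mir133a-2 and Mir133b, each share at least 21 nt with another locus, so their counts of 0 say nothing about the tissue. The liver locus Mir122 took 0.00430% in replicate 2 and 0.00609% in replicate 1. Endothelial and mural loci took 1.36% in replicate 2 and 2.12% in replicate 1, and oligodendrocyte loci 0.148% in replicate 2 and 0.428% in replicate 1. Erythroid loci took 0.0585% in replicate 2 and 0.0976% in replicate 1, microglial and leukocyte loci 0.123% in replicate 2 and 0.0691% in replicate 1, the choroid plexus locus Mir204 0.0893% in replicate 2 and 0.0445% in replicate 1, and epithelial loci 0.0169% in replicate 2 and 0.00876% in replicate 1. As sums, the endothelial, oligodendrocyte and erythroid lists were thus lower in replicate 2, and the other 3 of these lists were higher. Not every locus followed its sum. By the log2 ratio of replicate 2 over replicate 1, scaled as in the test below, Mir145a (0.36, endothelial and mural) and Mir144 (0.13, erythroid) were higher. Mir155 (−0.72, microglial and leukocyte) was lower. The remaining detected loci of these lists went with their sums. In the neuron-enriched list, whose sum was higher in replicate 2, Mir138-1 (−1.07), Mir138-2 (−0.61) and Mir132 (−0.39) were lower. The other detected loci of that list were higher. The part of these lists in the differences described below was not tested.

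All 6 loci were detected, that is, had at least 10 reads in each library. Mir770 led by a wide margin, with 102415 reads (31926 CPM) in replicate 2 and 113198 reads (41308 CPM) in replicate 1. Its mean of 36617 ± 6635 CPM (SD, n = 2) placed it 6th among all 2202 loci, the same place in each library. Mir337 was next among the 6, with 8761 reads (2731 CPM) in replicate 2 and 8802 reads (3212 CPM) in replicate 1. Its mean was 2972 ± 340 CPM (n = 2), place 56. The Meg3-hosted locus was thus 11.7-fold above the next member in replicate 2 and 12.9-fold above it in replicate 1.

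The other 4 loci were lower, at places 91 (Mir540), 118 (Mir673), 136 (Mir665) and 208 (Mir493) among all 2202 loci, of which 389 were detected. Mir540 had 4742 reads (1478 CPM) in replicate 2 and 3484 reads (1271 CPM) in replicate 1, a mean of 1375 ± 146 CPM (n = 2). Mir673, the locus closest to the end of Meg3, had 2415 reads (753 CPM) and 1930 reads (704 CPM) in replicates 2 and 1, a mean of 729 ± 34.3 CPM. Mir665 had 1875 reads (584 CPM) and 1173 reads (428 CPM) in replicates 2 and 1, a mean of 506 ± 111 CPM. For none of these loci was the spread between the libraries as large as the distance to the next locus in the order. Mir493 was the least abundant, with 366 reads (114 CPM) in replicate 2 and 281 reads (103 CPM) in replicate 1, a mean of 108 ± 8.17 CPM and place 208.

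The order Mir770, Mir337, Mir540, Mir673, Mir665 and Mir493 was the same in both libraries, and in each of the 5 neighbouring pairs the values of the libraries did not overlap and the gap of means exceeded the larger SD. The closest pair was Mir673 and Mir665, at 1.29-fold in replicate 2 and 1.65-fold in replicate 1. From the highest to the lowest locus the range was 280-fold in replicate 2 and 403-fold in replicate 1. The order did not follow the position along the chromosome: Mir493, the lowest, lies between Mir673 and Mir337. No test was made of this order. A microRNA library counts ligated and amplified molecules, so levels of different loci also carry whatever the preparation favours; that part was not tested.

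**Figure D2:**
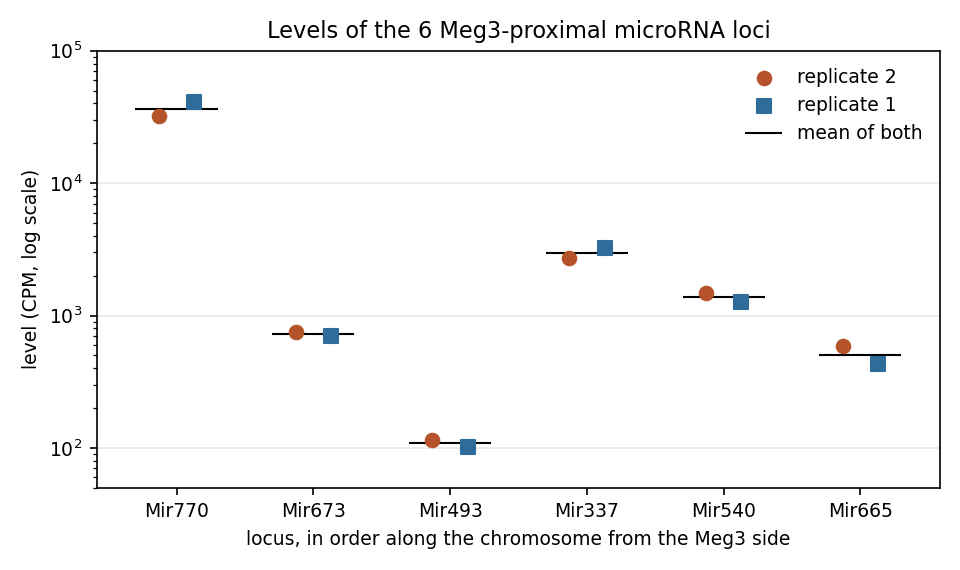
Level in CPM (log axis) of each of the 6 loci in replicate 2 (circles) and replicate 1 (squares), with the mean of both as a bar, in chromosomal order. Mir770 lies at 31926 and 41308 CPM in replicates 2 and 1 and Mir493 near 108 CPM, and the points of neighbouring ranks do not overlap.

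The sum of the 6 loci was 3.76% of the assigned reads in replicate 2 (exact Clopper-Pearson 95% interval 3.74 to 3.78%) and 4.70% in replicate 1 (4.68 to 4.73%), a mean of 4.23 ± 0.668% (n = 2). The labels mention no molecular identifiers, so these intervals stand for counting error alone. Mir770 alone supplied 84.9% of these reads in replicate 2 and 87.8% in replicate 1. Mir337 supplied 7.27% in replicate 2 and 6.83% in replicate 1, Mir540 3.93% in replicate 2 and 2.70% in replicate 1, and each of the remaining loci at most 2.00%. For each read of Mir493 there were 280 reads of Mir770 in replicate 2 and 403 in replicate 1.

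Within the Dlk1-Dio3 region, the 6 loci held 16.0% of the microRNA reads in replicate 2 (95% interval 15.9 to 16.1%) and 21.03% in replicate 1 (20.9 to 21.1%), a mean of 18.5 ± 3.57% (n = 2). The region was taken as 58 loci in 4 lists. The list of 9 Rtl1-antisense loci, which includes Mir127 and Mir433, held 40.8% of the region's reads in replicate 2 and 40.0% in replicate 1. Of this list, Mir3070a and Mir3070b lie outside the annotated extent of Rtl1. Mir3071, with 0 reads in both libraries, lies within that extent on the same strand as Rtl1 and so is not antisense to it. The 38 loci of the Mirg cluster held 38.7% in replicate 2 and 37.1% in replicate 1. The 5 loci listed for the Rian region, of which Mir1193 lies among the Mirg loci by position, held 4.46% in replicate 2 and 1.89% in replicate 1. Mir882 of that list, with 0 reads in both libraries, also lies beyond the annotated end of Rian. Among these lists the Meg3-proximal one had the highest share of its reads in a single locus: Mir770 held 84.9% in replicate 2 and 87.8% in replicate 1. The most abundant Rtl1-antisense locus, Mir127, held 71.8% of its list in replicate 2 and 68.9% in replicate 1, Mir370 held 73.5% and 38.2% of the Rian list in replicates 2 and 1, and Mir382 held 17.9% and 24.7% of the Mirg list in replicates 2 and 1. The median level of the detected loci was 1052 CPM for the 6 Meg3-proximal loci, 2197 CPM for 7 Rtl1-antisense loci, 1303 CPM for 4 loci of the Rian list and 960 CPM for 34 loci of the Mirg cluster. No test was made of these differences between lists.

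**Figure D3:**
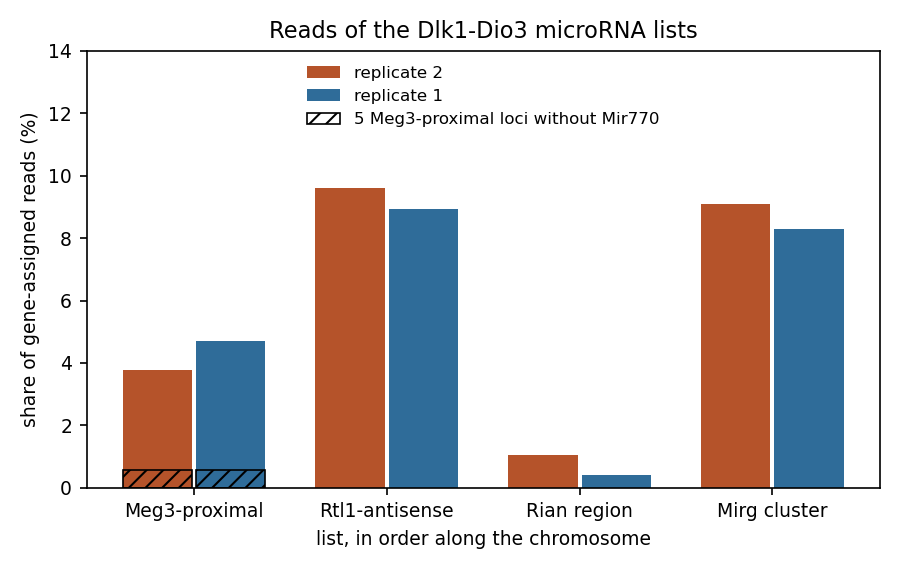
Share of gene-assigned reads in percent held by each list of Dlk1-Dio3 microRNA loci in replicate 2 (left bars) and replicate 1 (right bars), with the hatched part showing the 5 Meg3-proximal loci without Mir770. The hatched part is 0.566% in replicate 2 and 0.572% in replicate 1, of a total of 3.76% and 4.70%.

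The strand of the reads separates Mir337 from a locus on the other strand. Mir3544 (chromosome 12, 109585813 to 109585873, minus strand) lies wholly within Mir337, and its hairpin of 61 nt is the reverse complement of that part of the Mir337 hairpin. Both are printed with their mature arms in capitals.
Mir337: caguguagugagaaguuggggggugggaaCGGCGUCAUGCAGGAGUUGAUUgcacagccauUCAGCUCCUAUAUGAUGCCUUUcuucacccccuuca
Mir3544: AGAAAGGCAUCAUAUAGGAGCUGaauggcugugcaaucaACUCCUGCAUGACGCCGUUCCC
The arms miR-337-3p and miR-3544-5p cover the same 21 positions on opposite strands, and miR-337-5p and miR-3544-3p share 17. Mir3544 had 1 read on its own strand in replicate 2 and 0 in replicate 1, against 8761 in replicate 2 and 8802 in replicate 1 for Mir337, so almost every read of this pair came from the Meg3 strand. In the deposited column that ignores strand, Mir337 had 0 reads in both libraries, because reads over the pair were set aside as ambiguous. They equal 4.04% of the ambiguous reads of that column in replicate 2 and 4.62% in replicate 1. The 5 other loci had identical counts in both columns. Summed over the 6 loci, opposite-strand reads numbered 1 beside 120574 in replicate 2 and 0 beside 128868 in replicate 1, which allow shares of up to 0.00462% in replicate 2 (exact upper bound) and 0.00233% in replicate 1 (3 reads).

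Between the libraries, 3 of the 6 loci differed in reads and 3 did not pass the test (exact binomial test, two-sided, with library sizes scaled by edgeR's trimmed mean of M values, TMM; Benjamini-Hochberg over 389 detected loci; threshold 0.05). Over all detected loci 58.4% passed, so a count of 3 of 6 is near the background and is no result about these loci. The test covers counting error in these 2 libraries only. The median log2 ratio of replicate 2 over replicate 1 was −0.05 for the 6 loci and −0.01 for all detected loci.

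Mir770 was lower in replicate 2, at a log2 ratio of −0.54 (95% interval −0.56 to −0.53), with an adjusted p too small for the number format. Mir337 was also lower in replicate 2, at −0.41 (−0.45 to −0.36; exact binomial test, adjusted p = 1.12e-76). Mir665 was higher in replicate 2, at 0.28 (0.17 to 0.38; exact binomial test, adjusted p = 6.08e-07). These sizes were ordinary for this pair of libraries: 34.2% of detected loci had a larger absolute ratio than Mir770, 47.3% a larger one than Mir337 and 61.4% a larger one than Mir665. The SD of the log2 ratio over all detected loci was 0.70.

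Mir540 (0.04, 95% interval −0.02 to 0.11), Mir673 (−0.08, −0.16 to 0.01) and Mir493 (−0.02, −0.25 to 0.21) did not pass the test, at adjusted p of 0.227, 0.125 and 0.902 (exact binomial test). At least 87.4% of detected loci had a larger absolute ratio than each of these 3. The interval of Mir493 is the widest, since that locus rests on the fewest reads. With library totals alone the median of all loci moves to 0.16. Mir770, Mir337 and Mir665 keep their direction and call under that scaling. Mir540 (0.22) and Mir673 (0.10, with its sign turned) then pass the test, and Mir493 (0.15, with its sign turned) does not. A change of scaling moves the log2 ratios of all loci by the same amount, so their distances from the median cannot change.

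**Figure D4:**
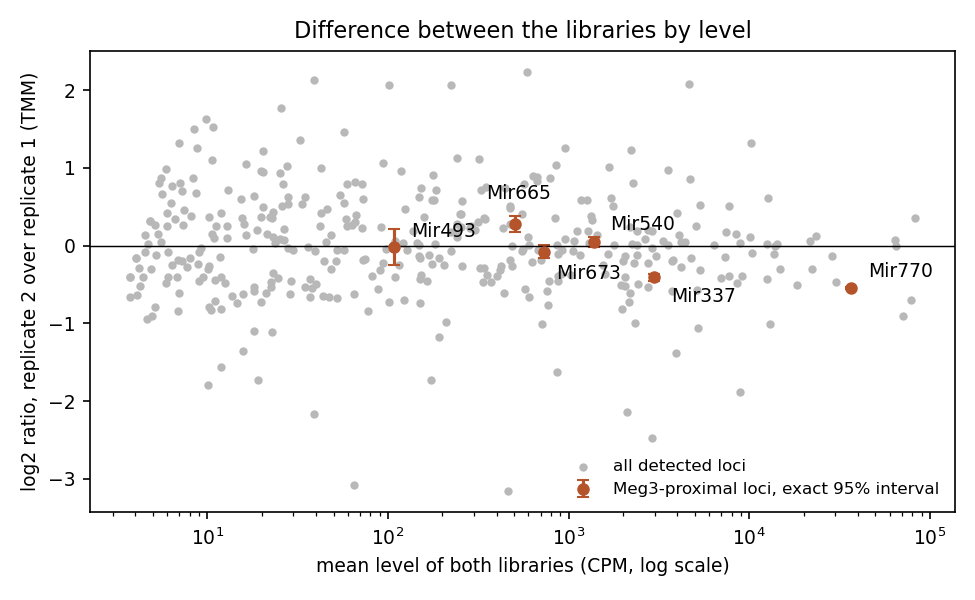
Log2 ratio of replicate 2 over replicate 1 after TMM scaling against mean level in CPM (log axis), with the 389 detected loci in grey and the 6 Meg3-proximal loci with exact 95% intervals. All 6 lie between −0.54 and 0.28, inside the spread of the grey points.

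Loci with the most similar levels were named by the distance in log2(CPM + 1) over the 2 libraries, 2 for each member. Mir770 was nearest to Mirlet7d (30311 ± 4364 CPM, distance 0.38) and Mir99a (28827 ± 622 CPM, 0.56). Mir337 was nearest to Mir320 (2760 ± 490 CPM, 0.18) and Mir22 (3040 ± 52.6 CPM, 0.20). Mir540 was nearest to Mir125b-1 (1438 ± 217 CPM, 0.11) and Mir29a (1292 ± 133 CPM, 0.13), and Mir673 to Mir326 (721 ± 26.8 CPM, 0.02) and Mir1981 (700 ± 4.33 CPM, 0.11). The nearest to Mir665 were Mir212 (476 ± 103 CPM, 0.12) and Mir222 (549 ± 155 CPM, 0.18), and to Mir493 were Mir9-3 (109 ± 12.6 CPM, 0.06) and Mir30b (116 ± 4.55 CPM, 0.21). None of these 12 loci lies in the Dlk1-Dio3 region, and 2 of them, Mir125b-1 and Mir9-3, hold a stretch of at least 20 nt found in another locus, so their own counts are uncertain. With 2 samples, this likeness describes levels only.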

How the data were processed

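The authors' deposited files, on mm10 with the GENCODE M21 annotation per the file list deposited with each sample, hold whole-number read counts for 2202 microRNA genes in 3 unnamed columns. The sources used here name no aligner, counter or trimming. From the values, the columns hold all reads whatever their strand, reads of the RNA strand (used here) and reads of the other strand. The 4 rows that name no gene took 66.7% of replicate 2 and 64.6% of replicate 1 and stayed out of library sizes. CPM, means, SDs, exact intervals (SciPy 1.17.1), TMM scaling (edgeR 4.0.16 in R 4.3.3) and hairpin folds (ViennaRNA 2.7.2) were computed here. The ratio test was tested on simulated counts that held counting error alone, so that check does not cover other spread between libraries. edgeR's quasi-likelihood test needs replicates on each side and was not used. Coordinates came from GENCODE M21 and sequences from RefSeq (GRCm38.p6). Alternatives were the column that ignores strand, minimums of 5, 50 or no reads, DESeq2 1.42.0 size factors, library totals, all reads as the total, a pseudocount of 5, and leaving out Mir770 or each replicate. Named loci were the 6 members, their 2 nearest loci in level, loci overlapping them, other microRNA loci in Meg3 and up to 2 per regional list. Mir6985, Mir6915, Mir1193, Mir882, Mir3071 and Mir3070b were named after their values were seen. So were the marker loci named as undetected or as going against the sum of their list. The members and lists were chosen with earlier results of these data known.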

Additional observations from a re-analysis of the deposited data

How the results depend on the processing

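The share of gene-assigned reads held by the 6 loci (4.23%) was 1.46% with all reads of a library as the total and 0.569% without Mir770. Their share of Dlk1-Dio3 reads (18.5%) was 2.96% without Mir770, so both shares rest mainly on that locus. With 1 replicate left out, these shares ranged from 3.76 to 4.70% and from 15.98 to 21.03%, and all 6 loci had at least 10 reads in either library alone. All 6 also had at least 50 reads in each library. In the column without strand, 5 loci were detected and 2 of 6 differed between the libraries, since Mir337 has no reads there. The number of loci that differed was 5 with library totals, which follow the shift of all loci given above, and 3 with DESeq2 size factors and with minimums of 5, 50 or no reads. The sign of Mir673 turned with library totals (0.10, adjusted p = 0.0489 by the exact binomial test), against adjusted p = 0.125 with TMM. All 12 nearest loci were the same with a pseudocount of 5. Taking every microRNA locus by position as the region, an alternative added after the data were seen, left the share within 1 SD. No paired analysis was possible because the series has 1 group. Depth limits Mir493 most, at 366 and 281 reads in replicates 2 and 1.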

Other observations

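Scaled by library totals, the 5 loci other than Mir770 summed to 5661 CPM in replicate 2, against 5718 CPM in replicate 1, a log2 ratio of replicate 2 over replicate 1 of −0.01, while Mir770 was 9383 CPM higher in replicate 1. The similar sums hold opposite differences: Mir337 fell by 481 CPM in replicate 2 relative to replicate 1, and the other 4 loci together were 423 CPM higher. With the TMM scaling used for the ratios, the log2 ratio of the sum of these 5 loci was −0.19. Of the other 4, Mir540 (0.04) and Mir665 (0.28) were then above 0 and Mir673 (−0.08) and Mir493 (−0.02) below it. Only Mir665 of these 4 passed the test, and the sum of these 4 loci was not computed with TMM.

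Mir337, Mir540 and Mir665 lie within 619 nt, with gaps of 194 and 167 nt, and their reads did not change by the same factor. Their log2 ratios of replicate 2 over replicate 1 were −0.41, 0.04 and 0.28 in that order along the chromosome, with exact 95% intervals that do not overlap. There were 4.67 reads of Mir337 for each read of Mir665 in replicate 2, against 7.50 in replicate 1. Over all detected loci the SD of the log2 ratio was 0.70 and 58.4% passed the test, so such differences between loci were ordinary here. Mir673 and Mir493, 8.15 kb apart, had 6.60 and 6.87 reads of Mir673 for each read of Mir493 in replicates 2 and 1. The interval of Mir493 (−0.25 to 0.21) is too wide to show that this proportion was kept. These comparisons were picked after the values were seen and rest on 2 libraries, and no cause was tested.

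Beyond Mir665, the next loci on the same strand are Mir3070a, 1.53 kb away with 59 reads in replicate 2 and 37 in replicate 1, and Mir3070b with 114 in replicate 2 and 122 in replicate 1. Both are counted in the Rtl1-antisense list, though by position they lie outside the annotated Rtl1. They begin 46.9 and 47.6 kb from the start of Meg3, and Rtl1 extends from 48.2 to 59.3 kb. The 2 loci share a stretch of 43 nt with each other, so reads in that stretch are not counted and their levels are uncertain. Further along that list, Mir433 had 22306 ± 1427 CPM and Mir127 65239 ± 5196 CPM (SD, n = 2).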
